A study of Mus musculus with 37 samples.

Results

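The data followed 9 genes of the heterochronic Lin28 and let-7 axis and of the trunk-to-tail switch through 6 consecutive somite stages. They were chosen by symbol from the 35542 genes of the count table as Lin28a, Lin28b, Gdf11, Trim71, Sall4, Hmga2, Igf2bp1, Igf2bp2 and Igf2bp3. RNA was sequenced from the tailbud of 37 mouse embryos of embryonic day 8 to 8.5, 1 library per embryo, from crosses of the strains C57BL/6 and Cast. The 21 Smchd1wt embryos carried an unrecombined floxed allele over an intact one (Smchd1 fl/+), and the 16 Smchd1matΔ embryos carried a deleted maternal allele over an intact paternal one (Smchd1 del/+). The mothers of Smchd1matΔ embryos were Smchd1 del/fl with MMTV-Cre (T/+), a transgene that is active in the growing oocyte. They were thus heterozygous for Smchd1 before Cre acted. The mothers of Smchd1wt embryos were Smchd1 fl/fl without the transgene (MMTV-Cre +/+). Smchd1matΔ embryos lacked both the oocyte supply of SMCHD1 and the maternal gene copy. The part of the mothers' own genotype in the values was not tested. There were 4 Smchd1wt and 4 Smchd1matΔ embryos at 6 somites, 4 and 3 at 7, 3 and 2 at 8, 3 and 2 at 9, 4 and 3 at 10, and 3 and 2 at 11 somites. Of the Smchd1wt embryos 13 were female and 8 male, and of the Smchd1matΔ embryos 11 were female and 5 male. The sexes were spread unevenly over the stages. Levels are given as CPM, counts per 1000000 counts of the library, with library sizes scaled by TMM factors. Smchd1, which encodes a chromatin protein of gene silencing, was at 105 to 204 CPM in Smchd1wt and at 64.0 to 112 CPM in Smchd1matΔ embryos. Of its Smchd1matΔ values, 16 of 16 lay below the Smchd1wt mean of their stage.

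LIN28A and LIN28B are RNA-binding proteins that block the maturation of let-7 microRNAs, and let-7 in turn represses Lin28 and a set of growth and progenitor genes, so that the axis runs from a high-Lin28 to a high-let-7 state as an embryo ages. In the tailbud this axis is known for keeping axial progenitors in place while the trunk and tail are laid down. GDF11 is a secreted ligand of the TGF-β superfamily that signals through activin receptors and SMAD2/3 and sets the time at which trunk formation gives way to tail formation. Among the other genes, Trim71 encodes an RNA-binding ubiquitin ligase that is a classic let-7 target, Sall4 a zinc-finger transcription factor of stem and progenitor cells, Hmga2 a chromatin architectural protein of embryonic cells, and Igf2bp1, Igf2bp2 and Igf2bp3 a family of RNA-binding proteins that stabilise fetal mRNAs.

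Mature let-7 microRNAs were not measured, because the library kits select poly(A) RNA, but their sequences and the matches to their seed (bases 2 to 8) in the transcripts of the 9 genes can be shown. With products of the 3′ arm left out, RefSeq (build GRCm38.p6) lists 11 mature microRNAs of the family by name. Of these, 10 share the seed GAGGUAG. The following members are shown, with the seed in capitals, to mark what the target sites pair with.
mmu-let-7a-5p: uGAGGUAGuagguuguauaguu
mmu-let-7g-5p: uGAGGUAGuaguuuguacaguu
mmu-miR-98-5p: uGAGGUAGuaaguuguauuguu

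The exact seed match CTACCTC was searched on the sense strand of the annotated 3′ UTR of 1 coding transcript per gene (GENCODE M21, GRCm38). It was found in 8 of the 9 genes, all but Gdf11, against 10.6% of 13803 tested genes with an annotated 3′ UTR. There were 4 matches each in Lin28b, Trim71, Hmga2 and Igf2bp1, 2 in Lin28a and 1 each in Sall4, Igf2bp2 and Igf2bp3. The members have long 3′ UTRs, with a median of 2811 bases against 1179 bases, but the rate was 0.689 against 0.0736 matches per kb. Among genes with a 3′ UTR of like length, 0.161% held as many matches as Hmga2, 0.368% as many as Lin28b, 0.604% as many as Trim71, 0.425% as many as Igf2bp1 and 2.30% as many as Lin28a. For Sall4, Igf2bp2 and Igf2bp3 the same share was 12.2%, 12.9% and 14.2%. Most of these genes are textbook let-7 targets, so this is a description of the set and not a test. The match nearest the stop codon of each gene is printed with its flanks on the minus strand, which is the coding strand of all 9 genes, and the match is in capitals.
Lin28a at chr4:134005179-134005208: cagcctgttgaaCTACCTCatttttgccga
Lin28b at chr10:45381012-45381041: cgggcgggaagtCTACCTCatgcaagcaca
Trim71 at chr9:114512462-114512491: attgcctaagtcCTACCTCagcttaaattt
Sall4 at chr2:168748930-168748959: gctttaatttatCTACCTCaattatcttta
Hmga2 at chr10:120364214-120364243: gacattcaatttCTACCTCagcatcagttg
Igf2bp1 at chr11:95961768-95961797: gtgcgaagtaaaCTACCTCaaggtgtgaag
Igf2bp2 at chr16:22059463-22059492: cacaaataaaagCTACCTCaggtgtttttt
Igf2bp3 at chr6:49086777-49086806: atttttactcaaCTACCTCaggtattcagt

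Each of these 8 printed matches is followed by an A, the base opposite the first base of the microRNA. Over all matches this was so for 1 of 4 in Lin28b and in Hmga2, 3 of 4 in Igf2bp1, and for every match of the other 5 genes. Gdf11 spans chromosome 10 from 128882295 to 128891718 and its 3′ UTR of 2811 bases held 0 matches, as did most 3′ UTRs of like length, of which 15.8% held at least 1. The absence says only that these 7 letters are not in this annotated 3′ UTR.

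Sequencing depth was 3.06 M to 80.6 M counts per library (M, 1000000) in Smchd1wt (median 12 M) and 0.916 M to 30.2 M in Smchd1matΔ embryos (median 14.2 M). All 9 genes passed the filter on low counts in each fit. The least counted member was Gdf11, with 43 counts in the shallowest library, Smchd1matΔ replicate 3 at 6 somites, and a median of 950. The tissue label was checked with 7 tailbud markers (T, Tbx6, Msgn1, Wnt3a, Fgf8, Cdx2 and Nkx1-2), whose summed level was 487 to 1241 CPM, and with 5 somite markers, which summed to 3.66 to 69.1 CPM. The highest somite sums, 69.1 and 30.4 CPM, were those of Smchd1matΔ replicates 2 and 1 at 6 somites. None of the markers of the lists was at 0 in all 37 libraries. 1 library stood apart for the genes described here. Smchd1wt replicate 1 at 10 somites held the lowest value of its group for 9 of 9 genes and the lowest tailbud marker sum of the 37 libraries, 487 CPM. In the same library the summed visceral and gut endoderm markers were at 2913 CPM and the primitive erythroid markers at 3864 CPM, each the third highest of 37. The part of these levels in the values of the 9 genes was not tested, and the slopes of the 9 genes that moved by over 1.5 times without the library are given both ways. The replicates 1 and 2 of Smchd1matΔ at 6 somites were rich in ribosomal RNA counts, at 2.77% and 1.82% against 0.176% to 1.28% in the other 35 libraries.

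To compare the 9 genes with each other, counts were divided by the merged exon length of each gene. Lin28a was the most expressed by this measure, at 339 ± 24.2 CPM per kb (SD, n = 37), above 99.5% of the 15976 tested genes with a length. Hmga2 followed at 108 ± 18.3 CPM per kb. Lin28a lay above Hmga2, and Hmga2 above Igf2bp1, in 37 of 37 embryos.

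Igf2bp1 at 52.5, Igf2bp2 at 46.8, Igf2bp3 at 42.2 and Sall4 at 38.4 CPM per kb formed a middle band. Within this band the higher of each pair of neighbours lay above the lower in 30 to 33 of the 37 embryos, with median ratios of 1.08 to 1.14, so the steps were smaller than the spread between embryos. Lin28b at 27.0 and Trim71 at 25.4 CPM per kb were no better separated, with Lin28b above Trim71 in 26 embryos. Gdf11 was lowest in the mean over all stages, at 18.6 ± 6.97 CPM per kb, and had the largest relative spread. Trim71 lay above Gdf11 in 30 of 37 embryos, but at 11 somites Gdf11, at 25.8 to 39.9 CPM per kb, lay above both Trim71 and Lin28b in 5 of 5 embryos. Lin28b stood above 86.7% and Gdf11 above 80.3% of tested genes.

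**Figure D1:**
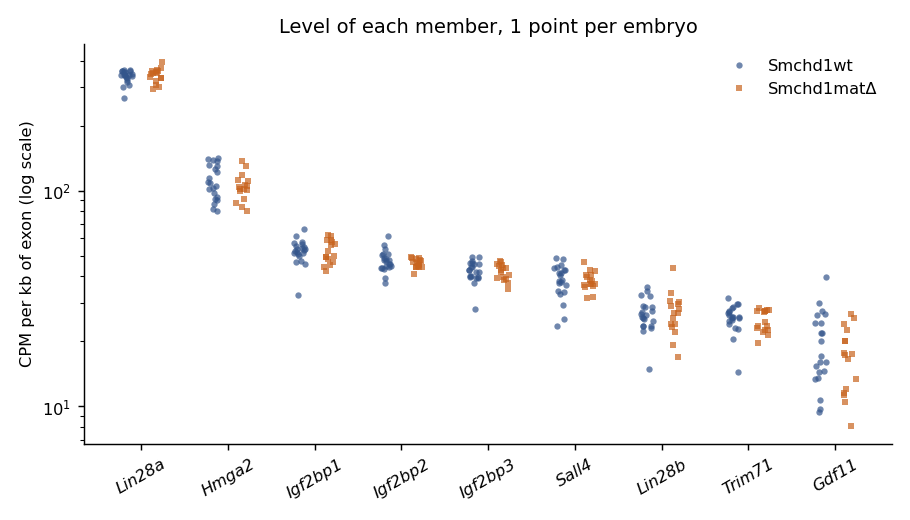
Level of each of the 9 genes in CPM per kb of exon (log axis), 1 point per embryo, with Smchd1wt as blue circles and Smchd1matΔ as orange squares. Lin28a (mean 339) and Hmga2 (mean 108) stand clear of the rest in both genotypes, and Gdf11 (mean 18.6 over all stages) is the most spread, reaching 39.9.

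The comparison that the choice of genes implies is the change of each gene with somite number. It was fitted apart in the 21 Smchd1wt and the 16 Smchd1matΔ embryos, with sex as a covariate, by edgeR's quasi-likelihood test with Benjamini-Hochberg adjustment over all genes tested, and slopes are given as log2 per somite. Of all genes tested, 6.64% passed an adjusted p-value of 0.05 in Smchd1wt embryos (1006 of 15148) and 3.07% in Smchd1matΔ embryos (475 of 15477). These shares moved with single embryos, for Smchd1wt to 1920 of 15333 genes without replicate 1 at 10 somites and to 668 genes without replicate 1 at 6 somites, and for Smchd1matΔ to 254 genes without replicate 2 at 11 somites. Among the 9 genes, 2 passed in each genotype, Gdf11 and Hmga2, and both rose. The other 7 did not pass in either genotype.

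Gdf11, the ligand, rose through the series. In Smchd1wt embryos, in the order of their replicate numbers, it was at 38.4, 59.4, 54.7 and 62.4 CPM at 6 somites and at 55.0, 81.5, 69.5 and 39.6 CPM at 7 somites. At 8 somites it was at 43.5, 89.3 and 65.6 CPM and at 9 somites at 65.4, 109 and 98.7 CPM. At 10 somites it was at 58.5, 99.4, 89.3 and 107 CPM and at 11 somites at 122, 162 and 113 CPM. Of the 7 embryos with 10 or 11 somites, 6 lay above every embryo with 6 or 7 somites, and the exception was replicate 1 at 10 somites, the library that stood apart.

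In Smchd1matΔ embryos Gdf11 was at 33.0, 42.7, 47.1 and 49.0 CPM at 6 somites and at 70.2, 54.2 and 45.7 CPM at 7 somites. It was at 67.3 and 72.0 CPM at 8 somites and at 70.7 and 98.2 CPM at 9 somites. It was at 81.6, 81.6 and 91.3 CPM at 10 somites and at 108 and 105 CPM at 11 somites. Here the 5 latest embryos did not overlap the 7 earliest, which was so, in the same direction, for 2.0% of 15978 genes.

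Over the 2 earliest and the 2 latest stages the level of Gdf11 went from 57.6 ± 14.4 (SD, n = 8) to 107 ± 31.6 CPM (SD, n = 7) in Smchd1wt and from 48.8 ± 11.5 (SD, n = 7) to 93.5 ± 12.6 CPM (SD, n = 5) in Smchd1matΔ embryos. The slope was 0.24 per somite in Smchd1wt (SE 0.042, adjusted p = 9.08e-04 by edgeR's quasi-likelihood test) and 0.25 in Smchd1matΔ embryos (SE 0.030, adjusted p = 1.27e-04). Over the 5 somites of the series these slopes amount to 2.29-fold and 2.36-fold. Ordered by p-value, Gdf11 was gene 119 of 15148 in Smchd1wt and gene 16 of 15477 in Smchd1matΔ embryos. With any 1 embryo left out the adjusted p-value stayed between 1.40e-04 and 0.00478 in Smchd1wt and between 6.72e-05 and 0.00193 in Smchd1matΔ embryos, and without Smchd1wt replicate 1 at 10 somites the slope was 0.26. The Smchd1wt call needed both ends of the series, since the slope was 0.24 (adjusted p = 0.10) without the 6-somite stage, whose embryos were all female, and 0.20 (adjusted p = 0.0632) without the 11-somite stage.

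**Figure D2:**
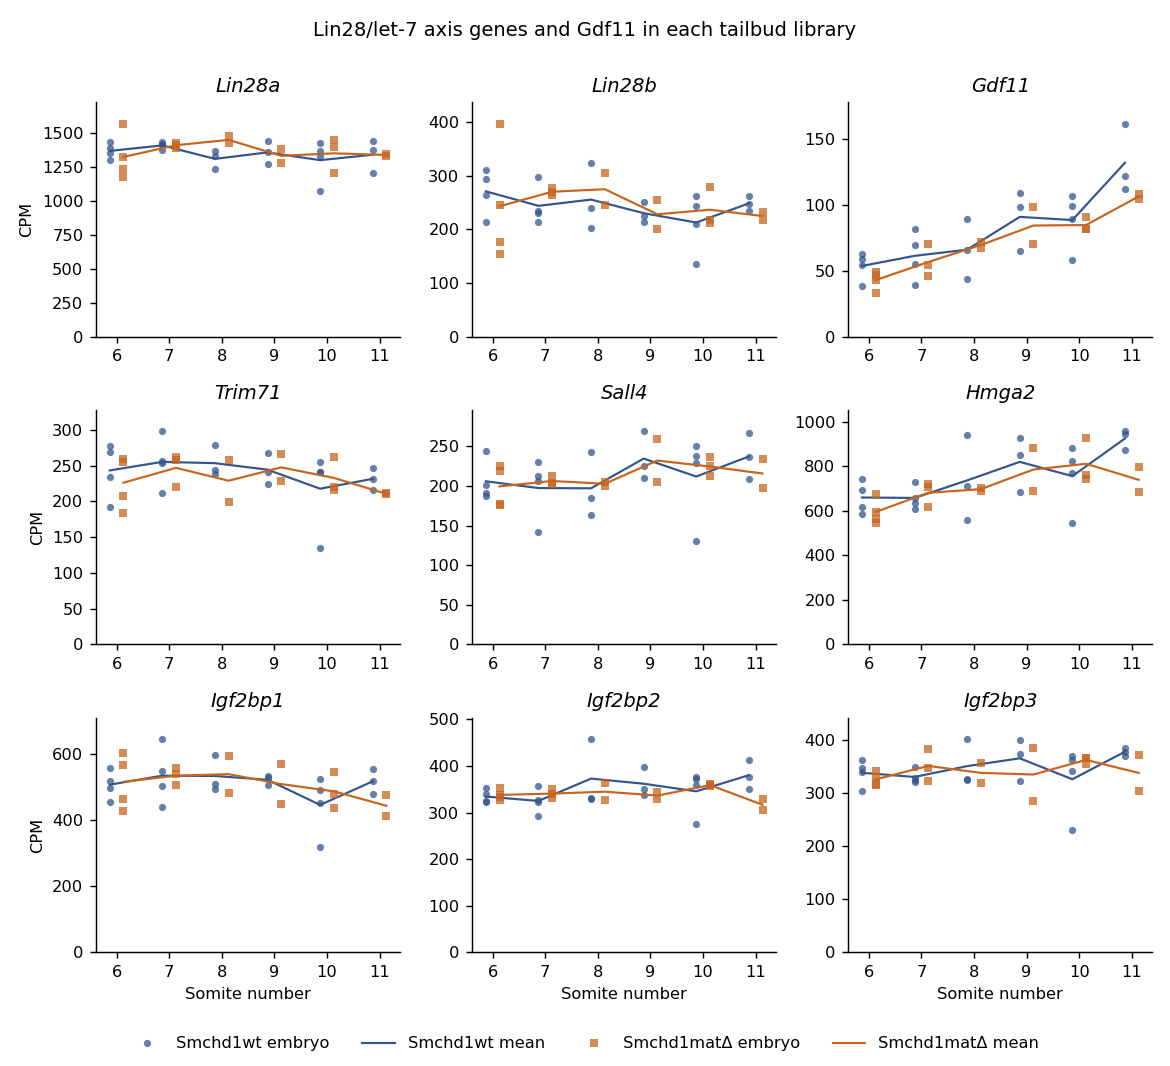
CPM of each of the 9 genes against somite number, with 1 point per embryo (Smchd1wt blue circles, Smchd1matΔ orange squares), lines through the stage means, and axes that start at 0. Gdf11 climbs in both genotypes, from 57.6 to 107 CPM and from 48.8 to 93.5 CPM between the 2 earliest and the 2 latest stages, while Lin28a stays near 1357 CPM.

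Hmga2, the chromatin architectural protein, also rose, by less. In Smchd1wt embryos it was at 586 to 745 CPM (median 647, n = 8) at 6 and 7 somites and at 546 to 958 CPM (median 876, n = 7) at 10 and 11 somites. In Smchd1matΔ embryos it was at 544 to 720 CPM (median 617, n = 7) and at 683 to 930 CPM (median 761, n = 5). The early and late embryos overlapped in both genotypes. The slope was 0.087 per somite in Smchd1wt (SE 0.026, adjusted p = 0.0406 from the quasi-likelihood test of edgeR) and 0.088 in Smchd1matΔ embryos (SE 0.022, adjusted p = 0.0324), or 1.35-fold and 1.36-fold over the series.

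The call of Hmga2 lay close to the threshold and was often lost when 1 embryo was left out, though the slope kept its direction. Omitting a single Smchd1wt embryo ended it in 12 of 21 cases (replicates 1, 2 and 4 at 6 somites, 1 and 4 at 7, 2 and 3 at 9, 3 and 4 at 10, and 1, 2 and 3 at 11 somites), with slopes of 0.076 to 0.090 and adjusted p-values of 0.0507 to 0.121. Omitting a single Smchd1matΔ embryo ended it in 7 of 16 cases (replicates 1, 2 and 4 at 6 somites, 1 at 7, 2 at 9, 3 at 10 and 2 at 11 somites), with adjusted p-values of 0.0507 to 0.105. Without Smchd1wt replicate 1 at 10 somites the slope was 0.10 (adjusted p = 0.00367).

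Lin28a, the more abundant LIN28 gene, moved little. In Smchd1wt embryos it was at 1300 to 1435 CPM (median 1402, n = 8) at 6 and 7 somites and at 1072 to 1445 CPM (median 1370, n = 7) at 10 and 11 somites. In Smchd1matΔ embryos it was at 1174 to 1570 CPM (median 1393, n = 7) and at 1207 to 1452 CPM (median 1348, n = 5). The late embryos lay within or below the early range in both genotypes, but for 1 Smchd1wt embryo at 1445 CPM. The slope was -0.016 per somite in Smchd1wt embryos (SE 0.014, adjusted p = 0.567 from the quasi-likelihood test of edgeR), and the interval of 2 SE, -0.044 to 0.013, corresponds to small changes in either direction. Without the library that stood apart it was -0.0074. In Smchd1matΔ embryos the slope was -0.0027 (SE 0.018, adjusted p = 0.971).

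Lin28b, the second LIN28 gene, was at 213 to 311 CPM (median 248, n = 8) in early and 135 to 263 CPM (median 243, n = 7) in late Smchd1wt embryos. The low end of the late range is the library that stood apart. Its slope was -0.043 (SE 0.030, adjusted p = 0.430 from the quasi-likelihood test of edgeR), and -0.026 without that library. In Smchd1matΔ embryos the slope was -0.024 (SE 0.043), and the spread at 6 somites was wide, with 154, 175, 397 and 245 CPM in replicates 1 to 4, of which the lowest pair are the libraries rich in ribosomal RNA counts and the highest is the shallowest library.

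Trim71, whose product binds RNA and is itself repressed by let-7, gave slopes of -0.034 (SE 0.027) in Smchd1wt and -0.012 (SE 0.025) in Smchd1matΔ embryos, the first being -0.015 without the library that stood apart. Sall4, the zinc-finger factor, gave 0.038 (SE 0.028) and 0.039 (SE 0.020). The 3 Igf2bp genes gave slopes of -0.034 to 0.031 over both genotypes. Without the same library the Smchd1wt slope of Igf2bp1 went from -0.023 to -0.0058 and that of Igf2bp3 from 0.019 to 0.034. The adjusted p-values of these 5 genes were 0.323 to 0.961 over the 2 fits. Each of the 7 genes that did not pass had a fold over 5 somites of 0.860 to 1.15 in both genotypes.

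**Figure D3:**
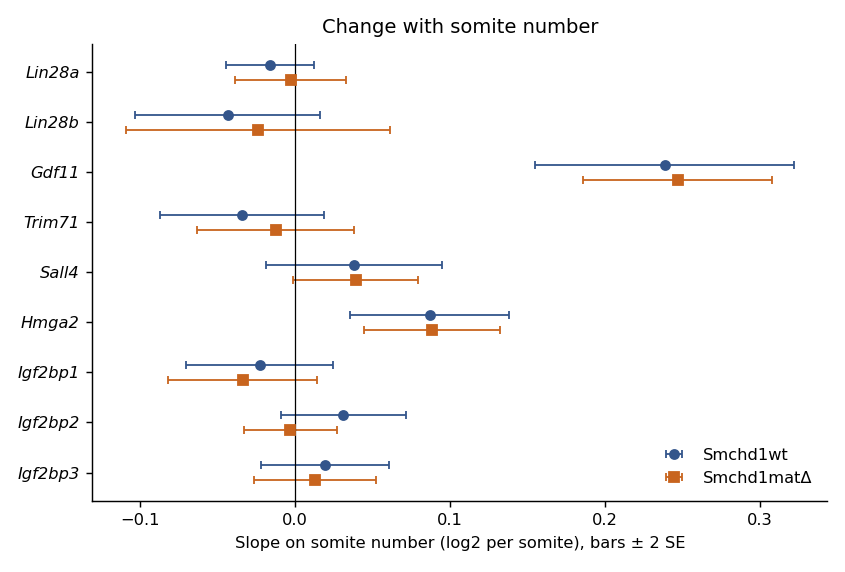
Slope of each of the 9 genes on somite number in log2 per somite, in 21 Smchd1wt (blue circles) and 16 Smchd1matΔ embryos (orange squares), with bars of 2 SE on each side. The bars of Gdf11 and Hmga2 lie above 0 in both genotypes, Gdf11 at 0.24 and 0.25, while those of the other 7 genes reach 0.

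The genes that make or act with let-7 were examined from a list of 17, namely the processing enzymes, Argonautes, terminal uridylyltransferases and their partners. Of the 16 tested, 0 passed in Smchd1wt and 0 in Smchd1matΔ embryos, with 1 and 5 at an unadjusted p-value under 0.05, against 21.4% and 17.5% of all genes tested. The median slope of the list was 0.010 and 0.023, against -0.0018 and 0.0024 over all genes. Ago3, an Argonaute, had the smallest p-value in Smchd1wt embryos with a slope of 0.099 (SE 0.034, adjusted p = 0.0808 from the quasi-likelihood test of edgeR), followed by Msi1, an RNA-binding partner of LIN28, with 0.050 (SE 0.025, adjusted p = 0.264). The let-7 primary transcripts were looked for as symbols that start with Mirlet7 or Mir98 and as the noncoding host genes Mir100hg and Mir99ahg, and of these the table held Mir99ahg, which was at 0 counts in 35 of 37 libraries and was not tested. Protein-coding host genes were not examined.

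Of 22 tested genes on a list of other let-7 targets, 2 rose and 3 fell in Smchd1wt embryos, and 0 rose and 1 fell in Smchd1matΔ embryos. The list was chosen with earlier results of these data known. Of all genes tested, 6.64% passed in Smchd1wt and 3.07% in Smchd1matΔ embryos. Nr6a1, a nuclear receptor of the trunk programme, fell in both, by 0.22 per somite in Smchd1wt (SE 0.033, adjusted p = 2.31e-04 from the quasi-likelihood test of edgeR) and by 0.22 in Smchd1matΔ embryos (SE 0.033, adjusted p = 7.40e-04). Thbs1, a matricellular glycoprotein, rose by 0.17 (SE 0.038) and Mycn, a growth-promoting transcription factor, by 0.072 (SE 0.020) in Smchd1wt embryos, with slopes of 0.025 (SE 0.074) and 0.036 (SE 0.021) in Smchd1matΔ embryos. Dusp9 and Arid3b, named after their values were seen, were the other 2 that fell. The list moved in both directions, and its median slope was 0.016 and 0.013 against -0.0018 and 0.0024 over all genes.

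Among 19 tested genes of the GDF11 pathway, 6 rose and 1 fell in Smchd1wt embryos, and 2 rose and 1 fell in Smchd1matΔ embryos. This list too was chosen with earlier results of these data known. The share of all tested genes that passed was 6.64% in Smchd1wt and 3.07% in Smchd1matΔ embryos. The gene of the list that fell was Fst, which encodes follistatin, a secreted inhibitor of GDF11 and activins. In Smchd1wt embryos Fst was at 5.92 to 181 CPM (median 35.1, n = 8) at 6 and 7 somites and at 6.16 to 9.56 CPM (median 7.70, n = 7) at 10 and 11 somites. In Smchd1matΔ embryos it was at 21.2 to 97.8 CPM (median 29.6, n = 7) and at 5.23 to 13.8 CPM (median 7.80, n = 5), with no overlap. How many of all genes fell without overlap was not counted. Fst fell by 0.69 per somite in Smchd1wt (SE 0.094, adjusted p = 7.87e-05 from the quasi-likelihood test of edgeR) and by 0.57 in Smchd1matΔ embryos (SE 0.086, adjusted p = 7.86e-04).

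Skil, which encodes the SMAD corepressor SnoN, rose from a median of 62.2 to 96.8 CPM between the 2 earliest and the 2 latest stages in Smchd1wt and from 49.3 to 82.7 CPM in Smchd1matΔ embryos, where the ranges did not overlap. In Smchd1matΔ embryos 2.0% of 15978 genes were likewise higher late without overlap. The slope of Skil was 0.16 (SE 0.027, adjusted p = 5.68e-04) in Smchd1wt and 0.22 (SE 0.033, adjusted p = 7.93e-04) in Smchd1matΔ embryos. Smad3, a receptor-activated SMAD, rose by 0.097 (SE 0.025, adjusted p = 0.0207) in Smchd1wt embryos and had a slope of 0.091 (SE 0.029, adjusted p = 0.103) in Smchd1matΔ embryos, all by edgeR's quasi-likelihood test. The other 4 that rose in Smchd1wt embryos, named after their values were seen, were the receptors Tgfbr1, Acvr1b and Acvr2a and the SMAD corepressor Ski. Tgfbr1, a type I receptor used by GDF11, was the other gene that rose in Smchd1matΔ embryos, with slopes of 0.096 (SE 0.026) and 0.12 (SE 0.029). Mstn, the closest paralogue of Gdf11, was listed at 0 counts in 37 of 37 libraries. Dgcr8, a microRNA processing gene in general use by cells and the untested gene of the let-7 processing list, was listed at 0 in all 37 as well, so a 0 in this table is not read as absence. The median slope of the pathway list was 0.037 in Smchd1wt and 0.014 in Smchd1matΔ embryos, against -0.0018 and 0.0024 over all genes.

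Of 20 tested trunk-to-tail factors, 2 rose and 4 fell in each genotype, against 6.64% of all tested genes that passed in Smchd1wt and 3.07% in Smchd1matΔ embryos. These factors were also listed with earlier results of these data known. Cdx1, a caudal homeobox factor, went from a median of 117 to 41.5 CPM in Smchd1wt and from 162 to 47.4 CPM in Smchd1matΔ embryos, with no overlap in either. Its slope was -0.34 (SE 0.041, adjusted p = 2.71e-05) and -0.46 (SE 0.061, adjusted p = 2.37e-04). Pou5f1, which encodes the pluripotency factor OCT4 and is known for prolonging trunk formation, went from 29.7 to 6.17 CPM and from 35.2 to 7.11 CPM, again with no overlap, with slopes of -0.53 (SE 0.070, adjusted p = 5.87e-05) and -0.59 (SE 0.066, adjusted p = 5.11e-05), by edgeR's quasi-likelihood test. The share of all genes that fell without overlap was not counted, so these separations have no background to be set against.

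Nr6a1, also on this list, went from a median of 782 to 427 CPM in Smchd1wt and from 842 to 431 CPM in Smchd1matΔ embryos. The fourth gene that fell was Nkx1-2, and the genes that rose were Cyp26a1 and Hoxc10 in Smchd1wt and Cyp26a1 and Hoxd13 in Smchd1matΔ embryos, all named after their values were seen. Cyp26a1 degrades retinoic acid in the tailbud and had slopes of 0.20 (SE 0.040) and 0.30 (SE 0.041). The median slope of the list was -0.021 and 0.057. None of the genes of these lists passed in the test of the difference in slope, so a call in 1 genotype alone is not a difference between them.

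**Figure D4:**
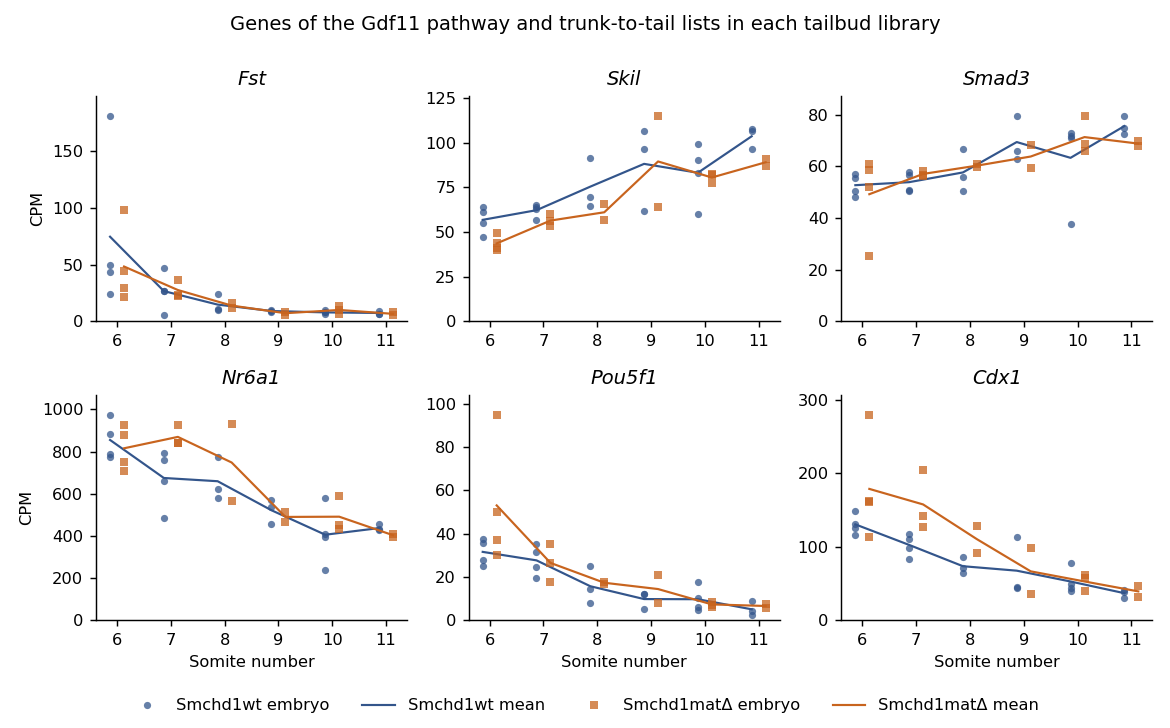
CPM of Fst, Skil, Smad3, Nr6a1, Pou5f1 and Cdx1 against somite number, with 1 point per embryo (Smchd1wt blue circles, Smchd1matΔ orange squares) and lines through the stage means. Fst, Nr6a1, Pou5f1 and Cdx1 descend in both genotypes, with Fst medians of 35.1 and 29.6 CPM early and 7.70 and 7.80 CPM late, while Skil climbs.

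The levels of other cell types moved with stage as well. The summed level of 7 visceral and gut endoderm markers was 493 to 2773 CPM (median 1353) at 6 and 7 somites and 95.8 to 2913 CPM (median 297) at 10 and 11 somites in Smchd1wt embryos, and 608 to 1745 CPM (median 1159) and 122 to 2948 CPM (median 234) in Smchd1matΔ embryos. The summed level of 8 primitive erythroid markers went the other way, from a median of 99.7 to 904 CPM and from 116 to 1778 CPM. The 5 somite markers went from a median sum of 8.11 to 11.2 CPM in Smchd1wt and from 18.1 to 10.9 CPM in Smchd1matΔ embryos. In bulk tissue, a change in the number of cells of a type cannot be told apart from a change in RNA per cell. With the levels of the somite, erythroid and endoderm markers as covariates, an alternative added after the data were seen, the slope of Gdf11 was 0.050 (adjusted p = 0.811) in Smchd1wt and 0.21 (adjusted p = 0.182) in Smchd1matΔ embryos, and that of Hmga2 was 0.0024 and 0.095. In those fits 1 of 16088 and 14 of 16222 genes passed. Marker levels and somite number changed together, so their parts in the slopes cannot be told apart here.

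The study's own question, whether loss of maternal SMCHD1 alters expression at a matched somite number, was then put to the 9 genes. In the test of the difference in slope between genotypes, 0 of 15978 genes passed after adjustment with edgeR's quasi-likelihood test and 626 (3.92%) were below 0.05 by unadjusted p-value, with 0 of the 9 genes among them. DESeq2 likewise called 0 genes, and by its unadjusted p-values 755 were below 0.05. Without Smchd1wt replicate 1 at 10 somites 835 of 15962 genes were below 0.05 with edgeR, among them 1 of the 9, Igf2bp2, with a difference of -0.046 and an adjusted p-value of 0.907. The difference in slope for Gdf11 was 0.013 per somite (SE 0.057) by the same test, with an interval of 2 SE of -0.10 to 0.13. The differences of the other 8 genes were -0.033 to 0.025 per somite, and their intervals lay within -0.085 and 0.12.

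The genotype effect over all stages was then fitted, with each somite stage given its own level and with sex. Of 15978 genes 2 passed after adjustment, and 906 (5.67%) were below 0.05 by unadjusted p-value, again with 0 of the 9 genes among them. The fitted log2 difference of Smchd1 was -0.74 (SE 0.075). For Gdf11 it was -0.15 (SE 0.099, adjusted p = 0.877 by edgeR's quasi-likelihood test), with an interval of 2 SE of -0.34 to 0.050, and 11 of 16 Smchd1matΔ embryos lay below the Smchd1wt mean of their stage. For Hmga2 it was -0.072 (SE 0.062) with 10 of 16 below. For Lin28a it was 0.013 (SE 0.037), with an interval of -0.062 to 0.087 that was the narrowest of the 9. For Lin28b it was 0.0035 (SE 0.091). The remaining 5 genes had differences of -0.054 to -0.0014. Without the library that stood apart the differences of the 9 genes were -0.17 (Gdf11) to -0.00014 (Lin28a), and 0 of 9 had an unadjusted p-value under 0.05. Sall4, Igf2bp1, Igf2bp3, Lin28a and Lin28b changed sign under at least 1 alternative setting. A p-value that misses the threshold does not show equal levels, and the interval of Gdf11 spans from a lower to a slightly higher level in Smchd1matΔ embryos.

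Stage by stage, the groups did not overlap in 7 comparisons of a gene at a stage. At 11 somites there were 2 Smchd1matΔ and 3 Smchd1wt embryos. There 6 of the 9 genes (Lin28b, Gdf11, Trim71, Hmga2, Igf2bp1 and Igf2bp2) were lower in both Smchd1matΔ embryos than in each Smchd1wt embryo. Of all 15978 genes 13.5% did the same at that stage. The mean of log2 CPM was lower in Smchd1matΔ embryos for all 9 genes but Lin28a. The primitive erythroid markers summed to 4235 and 1778 CPM in these Smchd1matΔ embryos. In the Smchd1wt embryos of that stage they summed to 904, 1194 and 595 CPM. The part of these levels in the values of the 9 genes was not tested. Gdf11 was there at 122, 162 and 113 CPM in Smchd1wt and at 108 and 105 CPM in Smchd1matΔ embryos, a difference of -0.29 on the log2 scale. Hmga2 was at 944, 876 and 958 CPM against 683 and 797 CPM, a difference of -0.33. At 10 somites the same 9 genes had differences of -0.028 to 0.19, and 8 of the 9 were positive. These signs rested on the library that stood apart, since without it the differences were -0.22 to 0.019 and 1 of the 9 was positive, a comparison added after the data were seen. The other case was Lin28a at 8 somites, at 1329, 1367 and 1237 CPM in Smchd1wt and 1425 and 1476 CPM in Smchd1matΔ embryos, where 8.57% of all genes were likewise higher without overlap. The 2 Smchd1matΔ embryos there were female, while 1 Smchd1wt embryo was female and 2 were male, so sex was not balanced in this comparison. The stages were not tested one by one.

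**Figure D5:**
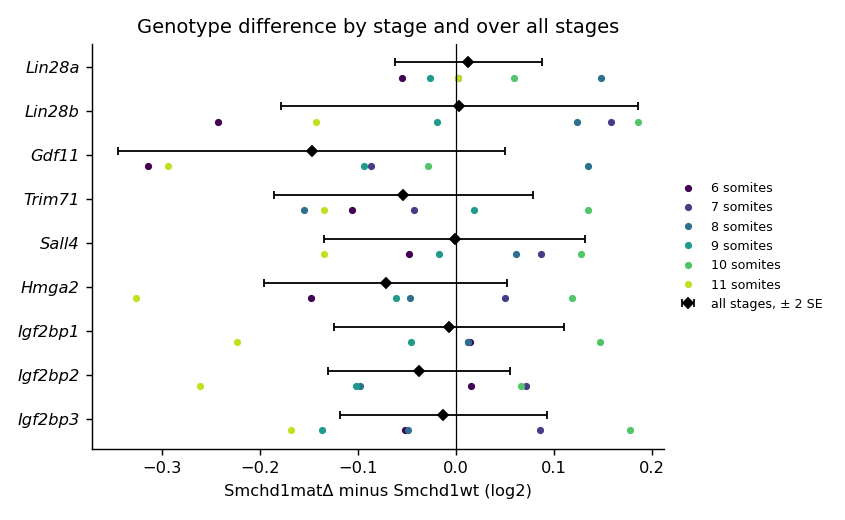
Smchd1matΔ minus Smchd1wt in log2 for each of the 9 genes, as the difference of group means at each stage (coloured circles) and as the fitted value over all stages (black diamonds, with bars of 2 SE on each side). The bars cross 0 for all 9 genes, and the 11-somite points lie to the left of 0 for 8 of the 9.

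Genes whose level followed Lin28a or Gdf11 most closely were listed by Pearson's r of log2 CPM over the 37 embryos, as a description, since the points share stage, tissue make-up and library. For Lin28a these were Tgif1 (r = 0.81), Pla2g7 (0.79), Cdx4 (0.78), T (0.77) and Gm9747 (0.76), of which Cdx4 and T are tailbud transcription factors. Lin28b came twelfth with 0.74. Over the means of the 12 groups of stage and genotype, these first 5 genes had r of 0.60 to 0.69. The library that stood apart held the lowest Lin28a value of the 37, 1072 CPM, and r was not computed without it. None of the 5 genes passed the test for somite number in either genotype (adjusted p-values of 0.373 to 0.917, edgeR's quasi-likelihood test).

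For Gdf11 the closest 4 were Hoxc8 (0.91), Hoxa9 (0.90), Idi1 (0.90) and Pard6g (0.89). Hoxc8 and Hoxa9 are Hox genes of the thoracic region and of its caudal border, Idi1 encodes an enzyme of isoprenoid synthesis, and Pard6g a polarity protein. All 4 rose with somite number in both genotypes, with slopes of 0.14 to 0.37 per somite. Hmga2 came 64th with 0.82, and Lin28a lay far down the same order with 0.17.

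The sources used here do not state that counting used the strand, so reads from exons that overlap another gene may be shared with it. This applied to 18.7% of the exon length of Igf2bp3 (shared with Malsu1), 9.50% of Sall4 (Gm14261), 5.86% of Lin28a (Gm13061), and 1.39% to 2.07% of Trim71, Hmga2 and Igf2bp1. Lin28b, Gdf11 and Igf2bp2 shared none.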

How the data were processed

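Tailbud RNA of 37 embryos was sequenced as single-end reads of 75 bases from poly(A) kits, of which the kit of each library is not given in the sources used here. The authors deposited raw read counts per gene, which they made by mapping to GRCm38.p6 with HISAT2 2.0.5 after trimming with Trim Galore 0.4.4, per the submitters' processing notes, and quantifying in SeqMonk. Of 35591 table entries 49 with repeated identifiers were left out, and 26 gene symbols stored as dates were looked up again by identifier. Deposited tables of the authors' own comparisons and of Hox log2 RPKM were not used.

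Counts were analysed with edgeR 4.0.16 in R 4.3.3, with TMM factors, filterByExpr at a minimum count of 10, the quasi-likelihood test (two-sided) and Benjamini-Hochberg adjustment at 0.05 over all genes tested. CPM were scaled by TMM over all 37 libraries, log2 CPM used a prior count of 2, and intervals are 2 SE on each side. The somite slope was fitted in each genotype with sex, the slope difference as the interaction over all 37 embryos, and the genotype effect with stage as a factor, plus sex. Of these fits, the Smchd1wt slope and the genotype effect were tried on simulated data, and the others were not. Alternatives were DESeq2 1.42.0, RLE factors, no filter, no sex term, females alone, a replicate block, leaving out embryos or stages, and marker covariates. The genes and lists were chosen with earlier results of these data known. Beside the 9 genes and Smchd1, the text names up to 3 genes per list with the smallest adjusted p for the Smchd1wt slope among those past the threshold (2 by p where fewer than 2 passed), and the 5 genes most correlated with Lin28a and with Gdf11, of which 1 is not reported here. Replicates are separate embryos, whose litters the labels do not give. Depth was 0.916 M to 80.6 M counts (M, 1000000).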

Additional observations from a re-analysis of the deposited data

Results flagged for a closer look

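In the Smchd1wt group at 10 somites, which held 4 embryos, replicate 1 lay far from the other embryos for 3 of the 9 genes. Trim71 was at 135 CPM there, against 240 to 255 CPM in the other embryos. Sall4 was at 130.3 CPM, against 229 to 251 CPM. Igf2bp2 was at 275 CPM, against 359 to 377 CPM. The check was Dixon's test at its 95% critical value, which chance passes in about 1 in 20 groups, and 36 such tests of a gene in a group of 4 were made. The library is the one with the lowest tailbud marker sum, 487 CPM, and with endoderm and erythroid marker sums of 2913 and 3864 CPM, and the part of these levels in the values was not tested.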

How the results depend on the processing

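The rise of Gdf11 kept its direction under every alternative tried, and 0 of the 9 genes passed for the slope difference or the genotype effect under any of them. The fits without the 6-somite or the 11-somite stage and with marker levels as covariates were chosen after seeing the data. Genes that passed for the Smchd1wt slope numbered 1802 with female embryos alone, 96 without the 6-somite stage, 343 without the 11-somite stage and 1 with marker covariates, and 0 of the 9 genes passed in the last 3. For the Smchd1matΔ slope the numbers were 1127 with DESeq2, 175 with female embryos alone, 234 and 189 without the 6-somite and the 11-somite stage, and 14 with marker covariates. There, 1 of the 9 genes passed without replicates 1, 2 and 3 at 6 somites together and 1 without the 6-somite stage, but 0 with marker covariates. Without a filter on low counts 39 genes passed for the slope difference, and for the genotype effect 1 passed with female embryos alone. Fits on fewer embryos gave both larger and smaller numbers than the main fits, and the cause of these changes was not tested. Leaving out 1 embryo at a time gave 668 (without Smchd1wt replicate 1 at 6 somites) to 1920 genes (without replicate 1 at 10 somites) for the Smchd1wt slope and 254 (without Smchd1matΔ replicate 2 at 11 somites) to 638 for the Smchd1matΔ slope, with 1 to 2 of the 9 genes in both, and 2 to 3 genes for the genotype effect. Replicate numbers were not used to pair the samples in the main fits. Deviations of same-numbered embryos correlated at -0.29 to 0.58 and above 0.1 in 4 of 16 pairs, which cannot tell whether some of them shared a litter. With the replicate block 901, 520, 0 and 1 genes passed in the 4 fits, Gdf11 had slopes of 0.24 and 0.25, and signs turned for the slope difference of Hmga2 (-0.0042) and the genotype effect of Lin28b (-0.0075), Sall4 (0.054), Igf2bp1 (0.011) and Igf2bp3 (0.029). All other changes of sign were in values that passed no test. For the Smchd1wt slope these were Lin28a 0.0060 and Igf2bp1 0.0042 in females and Igf2bp3 -0.025 with marker covariates. For the Smchd1matΔ slope they were Lin28a 0.0086, Lin28b 0.0090, Trim71 0.019 and Igf2bp2 0.0036 in females, Igf2bp3 -0.0019 without the 6-somite stage, Trim71 0.0061 and Igf2bp2 0.012 without the 11-somite stage, and Igf2bp2 0.0098 with marker covariates. For the slope difference, Hmga2 was at -0.0018 with DESeq2, -0.0019 with RLE factors, -0.0039 without a filter and -0.0081 without a sex term, where Sall4 was at -0.0098. In females Lin28a was at -3.6e-05, Sall4 at -0.012 and Igf2bp3 at 0.0014. Without Smchd1matΔ replicates 1, 2 and 3 at 6 somites Lin28a was at -0.00011, Lin28b at -0.013, Gdf11 at -0.027, Trim71 at -0.0089, Sall4 at -0.014 and Hmga2 at -0.020. Without the 6-somite stage Lin28b was at -0.041, Gdf11 at -0.042, Sall4 at -0.0036 and Hmga2 at -0.031, and without the 11-somite stage Igf2bp1 was at 0.021 and Igf2bp3 at 0.026. With marker covariates Lin28a was at -0.0020, Lin28b at -0.0068, Gdf11 at -0.014, Hmga2 at -0.0013 and Igf2bp3 at 0.0050. For the genotype effect, Sall4 was at 0.0019 with DESeq2, 0.0019 with RLE factors, 0.0027 without a filter, 0.0073 without a sex term, 0.018 without the 3 libraries, 0.0083 without the 6-somite and 0.017 without the 11-somite stage. Igf2bp1 was at 0.012 in females, 0.014 without the 3 libraries, 0.026 without the 11-somite stage and 0.0084 with marker covariates, Lin28a at -0.0037 in females and Igf2bp3 at 0.010 without the 11-somite stage. With 1 embryo left out at a time, the Smchd1matΔ slope ranged from -0.014 to 0.0034 for Lin28a, -0.053 to 0.0069 for Lin28b, -0.012 to 0.0054 for Igf2bp2 and -0.0025 to 0.025 for Igf2bp3. The slope difference ranged from -0.012 to 0.056 for Lin28b, -0.011 to 0.037 for Gdf11, -0.013 to 0.014 for Sall4, -0.014 to 0.014 for Hmga2 and -0.019 to 0.0091 for Igf2bp3. The genotype effect ranged from -0.0036 to 0.026 for Lin28a, -0.048 to 0.043 for Lin28b, -0.030 to 0.026 for Sall4, -0.031 to 0.014 for Igf2bp1 and -0.039 to 0.011 for Igf2bp3. Depth limited Gdf11 most, with 43 counts in the shallowest library.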
